A study of Mus musculus with 8 samples.

Results

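Phase II conjugation enzymes attach a polar group to drugs, pollutants, hormones and reactive by-products of metabolism so that these can be exported from cells. The genes described here are the protein-coding genes with symbols of the glutathione S-transferases (Gsta, Gstk, Gstm, Gsto, Gstp and Gstt), the microsomal glutathione S-transferases (Mgst), the UDP-glucuronosyltransferases and their relatives (Ugt1, Ugt2 and Ugt3) and the cytosolic sulfotransferases (Sult). The symbols matched 66 of the 54532 genes in the table of counts, and the 29 genes with at least 10 counts in 4 or more of the 8 libraries are reported. The RNA came from whole lungs of CC-LR mice at 14 weeks of age. These mice carry a Cre recombinase at the club cell secretory protein locus and an LSL-K-ras G12D allele on a C57BL/6 background, so that mutant K-ras is switched on in the lung epithelium and tumors form there. The Control group and the TTI-101 group, with 4 mice each and 1 library per mouse, both carried these alleles, and the TTI-101 group had received the STAT3 inhibitor TTI-101 for 4 weeks. The comparison asks which genes of these families were higher or lower in the treated tumor-bearing lungs. The route of TTI-101 for the sequenced mice was not stated, and no lung without mutant K-ras was in the comparison.

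Glutathione S-transferases join the thiol of glutathione to electrophilic compounds, and the microsomal members sit in membranes, where some also reduce lipid peroxides or take part in leukotriene synthesis. UDP-glucuronosyltransferases add glucuronic acid from UDP-glucuronate, and sulfotransferases add sulfate from PAPS (3'-phosphoadenosine 5'-phosphosulfate). Club cells of the airway are known for high xenobiotic metabolism in the lung, and the transcription factors NRF2, which answers electrophiles and oxidants, and AHR, which answers planar aromatic compounds, are textbook activators of many of these genes.

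Total counts were between 16446481 and 26873509 in Control and between 16075855 and 25920509 in TTI-101 libraries, so that 3 counts, the limit that a count of 0 allows, stood for 0.112 to 0.187 CPM by library totals (counting error only). CPM are counts scaled to a common library size, by TMM in all values that follow. Control mouse 4 stood apart from the other libraries. It lay at 98.2 on the first principal component of log2 CPM, which held 44.5% of the variance, while the other 7 libraries lay between -39.2 and 19.02. Mitochondrial genes took 5.56% of its counts and 2.01% to 2.85% of the counts in the others. Xist was between 400.2 and 449.6 CPM in mice 1 and 2 of each group and at most 2.11 CPM in mice 3 and 4 of each group. In RNA from whole lung, fewer cells of a type and less RNA per cell cannot be told apart.

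No conjugation enzyme passed an adjusted p of 0.05 in edgeR's quasi-likelihood test, and neither did any other of the 17138 genes tested (0%). Of the 29 reported genes, 22 had a lower and 7 a higher fitted level in TTI-101 lungs, so that 24.1% were higher, against 50.6% of all genes tested. The median log2 fold change (TTI-101 minus Control, on TMM-scaled counts) was -0.12 for the 29 genes and 0.0034 for all genes. With single libraries left out, the median of the 29 genes ranged from -0.23 (without control mouse 2, and also without TTI-101 mouse 3) to -0.05 (without control mouse 4, and also without TTI-101 mouse 4), and it was -0.20 without control mouse 1 and -0.07 without control mouse 3. An unadjusted p under 0.05 was found for 4 of the 29 genes (13.8%), Gsta4, Mgst1, Sult2b1 and Gstp2, against 6.61% of all genes. All 4 were lower in TTI-101 lungs, as were 3.58% of all genes at that threshold. None of the 29 had all 4 TTI-101 libraries above all Control libraries, where 1.53% of all genes did, and none had all 4 below, where 1.43% of all genes did. The lowest adjusted p among the 29 genes was 0.657. Without control mouse 4, 18 of the 29 genes were lower and 2 had an unadjusted p under 0.05, Gsta4 (lower) and Gstm7 (higher), against 3.03% of all genes.

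**Figure D1:**
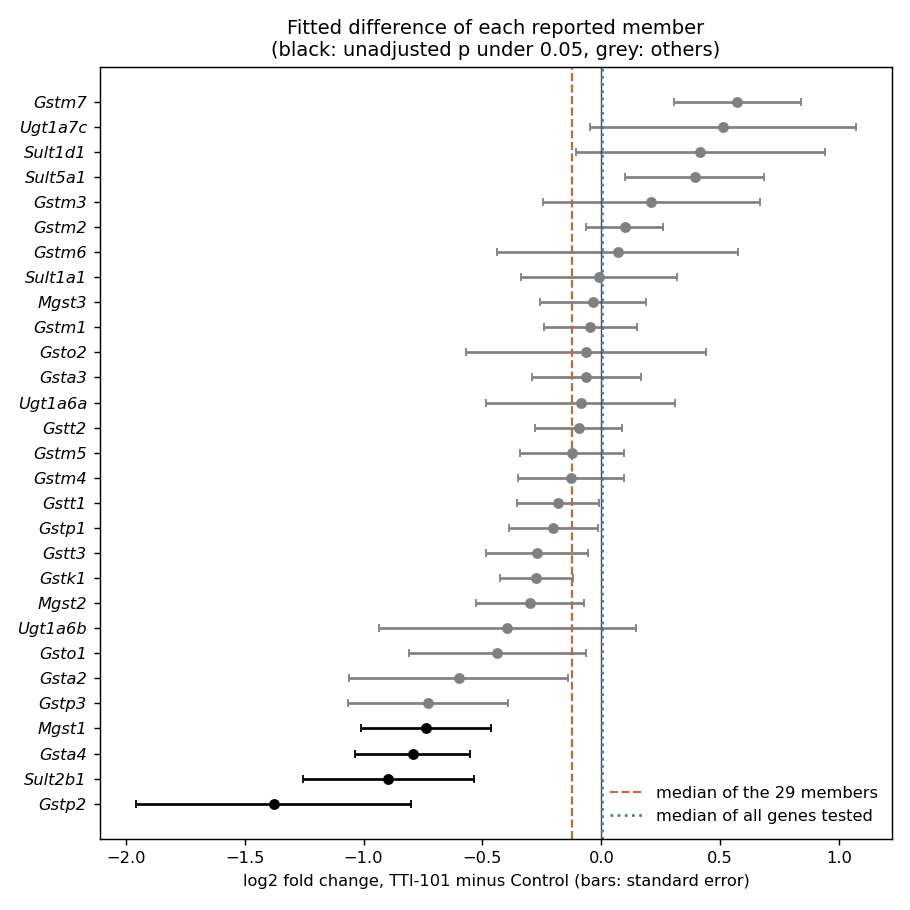
Log2 fold change (TTI-101 minus Control) of each of the 29 reported genes with its standard error, ordered by size. Black points have an unadjusted p under 0.05 in edgeR's quasi-likelihood test. The dashed line is the median of the 29 genes (-0.12) and the dotted line that of all genes tested (0.0034). The 4 black points lie at the lower end, and the largest positive value is that of Gstm7 (0.57).

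The libraries did not contribute evenly to this pattern. Control mouse 4 was the highest library for 12 of the 29 genes and the lowest for 4, and control mouse 3 was the highest for 6. TTI-101 mouse 4 was the lowest for 9 genes, and TTI-101 mouse 3 was the highest for 4 and the lowest for none. The 29 genes together summed to 1566, 1948, 2303 and 2583 CPM in Control mice 1 to 4 and to 1575, 1941, 1979 and 1523 CPM in TTI-101 mice 1 to 4. The lowest Control sum therefore lay within the range of the TTI-101 sums, and the 2 highest sums were those of Control mice 3 and 4.

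**Figure D2:**
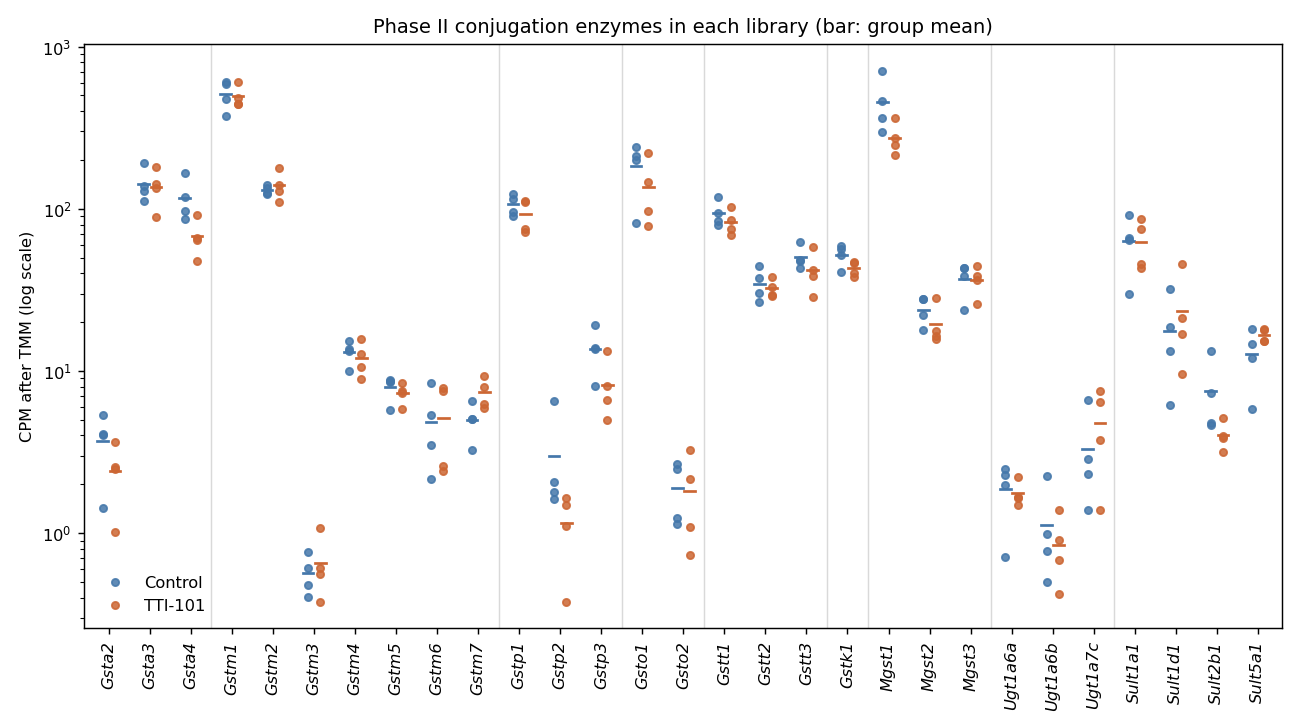
Level of each of the 29 reported genes in every library, in CPM after TMM on a log axis, grouped by enzyme family. Points are single mice (blue Control, orange TTI-101) and short bars are group means. For every gene the groups share part of their range. Gsta4, Gstp2, Gstp3, Gstt3, Mgst1, Mgst2 and Sult2b1 show 3 TTI-101 points under the lowest Control point. The share of all genes tested with 3 such points was not counted, so this is a description only.

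Some of these genes are close copies of each other, so that their reads can be split wrongly. The first 60 bases of the coding sequences of Gstp1 and Gstp2, taken from the GENCODE M21 transcripts (GRCm38, chromosome 19), are shown because they hold 6 of the 12 differences between the genes over 630 coding bases (98.1% identity). Capitals mark the bases that differ.
Gstp1: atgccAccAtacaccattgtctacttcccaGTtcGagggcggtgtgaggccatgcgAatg
Gstp2: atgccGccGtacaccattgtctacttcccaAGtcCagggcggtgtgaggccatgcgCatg
The longest identical run of the coding sequences is 300 bases. Of the 100-base windows of its transcripts, Gstp2 shared 42.2% with other genes, and Gstp1 shared 38.4%. The Ugt1 genes share their last exons, and the shared part was 95.7% for Ugt1a6a, 70.9% for Ugt1a6b and 52.8% for Ugt1a7c. Gsta2 shared 24.8%, Gstt3 18.1% and Gstm3 13.8%. These shares are not the size of an error, and the error from shared windows in the values of these genes was not measured. Gsta4, Mgst1, Sult2b1, Gstp3, Gstm7, Gstk1 and Gsto1 shared no such window.

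Among the alpha class, which is known for conjugating products of lipid peroxidation, Gsta4 had the lowest p of the 29 genes. Gsta4 (ENSMUSG00000032348, chromosome 9, 78182774 to 78209349), whose enzyme is specialised for 4-hydroxynonenal, was at 86.0, 97.2, 119 and 166 CPM in Control mice 1 to 4 and at 66.4, 91.8, 64.2 and 47.7 CPM in TTI-101 mice 1 to 4. TTI-101 mice 1, 3 and 4 lay below all Control libraries, and TTI-101 mouse 2 overlapped the Control group. The means were 117 ± 35.5 CPM in Control and 67.5 ± 18.2 CPM in TTI-101 (SD, n = 4 each), for a log2 fold change of -0.79 ± 0.24 (SE, unadjusted p = 0.00805, adjusted p = 0.657 by edgeR, and p = 0.0571 in a two-sided exact permutation test whose smallest possible p is 0.0286). Gsta4 kept an unadjusted p under 0.05 in all 17 fits, with a highest p of 0.0271, and without control mouse 4 its log2 fold change was -0.57 (unadjusted p = 0.0213, edgeR).

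Gsta2 (chromosome 9, 78331018 to 78355788) was a low gene, at 1.43, 4.01, 5.33 and 4.09 CPM in Control mice 1 to 4 and at 2.49, 1.02, 3.67 and 2.55 CPM in TTI-101 mice 1 to 4. The groups overlapped, with the lowest library in TTI-101 and the next lowest in Control. Its log2 fold change was -0.60 ± 0.46 (SE, unadjusted p = 0.220, edgeR), and -0.34 without TTI-101 mouse 2 and -0.37 without control mouse 3. Gsta3, the most abundant alpha gene here by CPM, had means of 142 CPM in Control and 136 CPM in TTI-101 (log2 fold change -0.06). The 4 alpha genes summed to 264 ± 54.1 CPM in Control and 206 ± 28.9 CPM in TTI-101 (SD, n = 4 each), 21.8% lower.

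The mu class held the most abundant transcripts. Gstm1 (chromosome 3, 108012255 to 108017973), a broad conjugator of epoxides and other electrophiles, had the highest level per length of all 29 genes, at 340 CPM per kilobase of gene model. It was at 371, 475, 585 and 605 CPM in Control mice 1 to 4 and at 440, 445, 602 and 485 CPM in TTI-101 mice 1 to 4. The ranges of the groups almost coincided. The means were 509 ± 108 and 493 ± 75.2 CPM (SD, n = 4 each), with a log2 fold change of -0.05 ± 0.19 (SE, adjusted p = 0.955, edgeR) whose sign turned when single libraries were left out. Gstm2 (chromosome 3, 107981702 to 107986453) was at 124, 122.8, 140 and 134 CPM in Control and at 139, 110, 179 and 129 CPM in TTI-101 mice 1 to 4. The TTI-101 libraries spanned the Control range on both sides, and the log2 fold change was 0.10 ± 0.16 (SE, adjusted p = 0.860, edgeR), which turned to -0.05 without TTI-101 mouse 3.

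Gstm7 (chromosome 3, 107926334 to 107931817) was the gene with the lowest p among those with a higher level. It was at 5.03, 5.02, 3.27 and 6.52 CPM in Control mice 1 to 4 and at 6.26, 7.99, 9.34 and 5.90 CPM in TTI-101 mice 1 to 4. TTI-101 mice 2 and 3 lay above all Control libraries, while control mouse 4 lay within the TTI-101 range. The means were 4.96 ± 1.33 CPM and 7.37 ± 1.598 CPM (SD, n = 4 each), for a log2 fold change of 0.57 ± 0.27 (SE, unadjusted p = 0.0568, adjusted p = 0.657, edgeR). Without control mouse 4 it was 0.74 (unadjusted p = 0.0187, edgeR). Of the other mu genes, Gstm3, Gstm4, Gstm5 and Gstm6 had log2 fold changes from -0.13 to 0.21. The Control and TTI-101 means were 0.565 and 0.655 CPM for Gstm3, 13.1 and 11.96 CPM for Gstm4, 7.94 and 7.29 CPM for Gstm5, and 4.87 and 5.11 CPM for Gstm6. The 7 mu genes summed to 671 ± 116 CPM in Control and 665 ± 107 CPM in TTI-101 (SD, n = 4 each), with a sign that turned as single libraries were left out (log2 ratio of the means from -0.13 to 0.06), and made up 34.6% of the summed CPM of all 66 genes.

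The pi class lies as a cluster on chromosome 19. Gstp1 (4035407 to 4037921), the main pi enzyme, was at 96.1, 90.5, 123.5 and 115 CPM in Control mice 1 to 4 and at 72.2, 112, 111 and 74.9 CPM in TTI-101 mice 1 to 4. TTI-101 mice 1 and 4 lay below all Control libraries, and the other TTI-101 libraries lay inside the Control range. Its log2 fold change was -0.20 ± 0.19 (SE, adjusted p = 0.749, edgeR), and -0.10 without TTI-101 mouse 1, -0.11 without TTI-101 mouse 4 and -0.12 without control mouse 3. Gstp2 (4040285 to 4042236) was a low gene, at 1.61, 1.79, 2.05 and 6.52 CPM in Control mice 1 to 4 and at 0.377, 1.501, 1.11 and 1.64 CPM in TTI-101 mice 1 to 4. Control mouse 4 was more than 3 times as high as any other library, with 102 counts, and TTI-101 mouse 4 lay just above the lowest Control library. The log2 fold change was -1.38 ± 0.58 (SE, unadjusted p = 0.0379, adjusted p = 0.657, edgeR), and it was -0.66 without control mouse 4 (unadjusted p = 0.197, edgeR). Gstp3 (4057477 to 4059446), which shares no 100-base window with the others, was at 13.8, 8.07, 13.7 and 19.1 CPM in Control and at 8.03, 13.3, 6.62 and 4.99 CPM in TTI-101 mice 1 to 4. Control mouse 2 and TTI-101 mouse 2 lay at the other group's level, and the log2 fold change was -0.73 ± 0.34 (SE, unadjusted p = 0.0544, edgeR). It was -0.52 without control mouse 4 (unadjusted p = 0.148, edgeR) and -1.05 without TTI-101 mouse 2 (unadjusted p = 0.00681, edgeR).

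Gsto1 (chromosome 19, 47854970 to 47864790), an omega-class enzyme that reduces rather than conjugates many of its substrates, was at 81.7, 201, 211 and 241 CPM in Control mice 1 to 4 and at 78.4, 220, 147 and 96.9 CPM in TTI-101 mice 1 to 4. Mouse 1 was the lowest of each group, and both groups spread over about the same range. The log2 fold change was -0.44 ± 0.37 (SE, adjusted p = 0.729, edgeR). It ranged from -0.76 without TTI-101 mouse 2 and -0.68 without control mouse 1 to -0.27 without control mouse 4 and -0.25 without TTI-101 mouse 1. Gsto2 had means of 1.89 and 1.81 CPM. Gstt1 (chromosome 10, 75783813 to 75798584), a theta-class enzyme that acts on small halogenated compounds, was at 79.8, 83.6, 94.5 and 118 CPM in Control and at 74.6, 84.7, 103 and 69.2 CPM in TTI-101 mice 1 to 4, with a log2 fold change of -0.18 ± 0.17 (SE, adjusted p = 0.753, edgeR). Its groups overlapped, with TTI-101 mice 1 and 4 below all Control libraries, and the value was -0.05 without control mouse 4, -0.11 without TTI-101 mouse 4 and -0.30 without TTI-101 mouse 3. Gstt2 had means of 34.6 CPM in Control and 32.4 CPM in TTI-101. Gstt3 had means of 50.4 and 41.7 CPM (log2 fold change -0.27), with 3 TTI-101 libraries below all Control libraries. Gstk1 (chromosome 6, 42245935 to 42250447), the kappa-class enzyme of mitochondria and peroxisomes, was at 40.9, 51.6, 56.7 and 58.8 CPM in Control and at 46.5, 40.1, 47.3 and 37.9 CPM in TTI-101 mice 1 to 4. Control mouse 1 lay within the TTI-101 range and the other Control libraries above it, and the log2 fold change was -0.27 ± 0.15 (SE, unadjusted p = 0.102, edgeR).

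The microsomal transferases gave the largest difference of any family total in CPM. Mgst1 (ENSMUSG00000008540, chromosome 6, 138140316 to 138156755), which has transferase and peroxidase activity in the endoplasmic reticulum and mitochondrial outer membrane, was the gene with the next highest level per length after Gstm1, at 182 CPM per kilobase. It was at 297, 364, 461 and 712 CPM in Control mice 1 to 4 and at 249, 364, 273 and 214 CPM in TTI-101 mice 1 to 4. Control mouse 4 was the highest, 3 TTI-101 libraries lay below all Control libraries, and TTI-101 mouse 2 matched control mouse 2. The means were 458 ± 182 CPM and 275 ± 64.5 CPM (SD, n = 4 each), for a log2 fold change of -0.74 ± 0.27 (SE, unadjusted p = 0.0222, adjusted p = 0.657, edgeR, and p = 0.0857 in the exact permutation test). Without control mouse 4 it was -0.43 (unadjusted p = 0.0653, edgeR), and the p was under 0.05 in 13 of 17 fits. Mgst2 (chromosome 3, 51660360 to 51682677), which can make leukotriene C4, was at 22.0, 18.0, 27.8 and 27.9 CPM in Control and at 17.5, 28.0, 16.4 and 15.8 CPM in TTI-101 mice 1 to 4. TTI-101 mouse 2 was the highest of all 8 libraries, and the other 3 TTI-101 libraries were the lowest of all. Its log2 fold change was -0.30 ± 0.23 (SE, unadjusted p = 0.216, edgeR), and -0.52 without TTI-101 mouse 2. Mgst3 had means of 37.1 and 36.2 CPM (log2 fold change -0.04). The Mgst sum was 519.5 ± 192 CPM in Control and 331 ± 75.3 CPM in TTI-101 (SD, n = 4 each), 36.4% lower, with 3 TTI-101 libraries below all Control libraries. The log2 ratio of these means was -0.65, and -0.39 without control mouse 4.

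**Figure D3:**
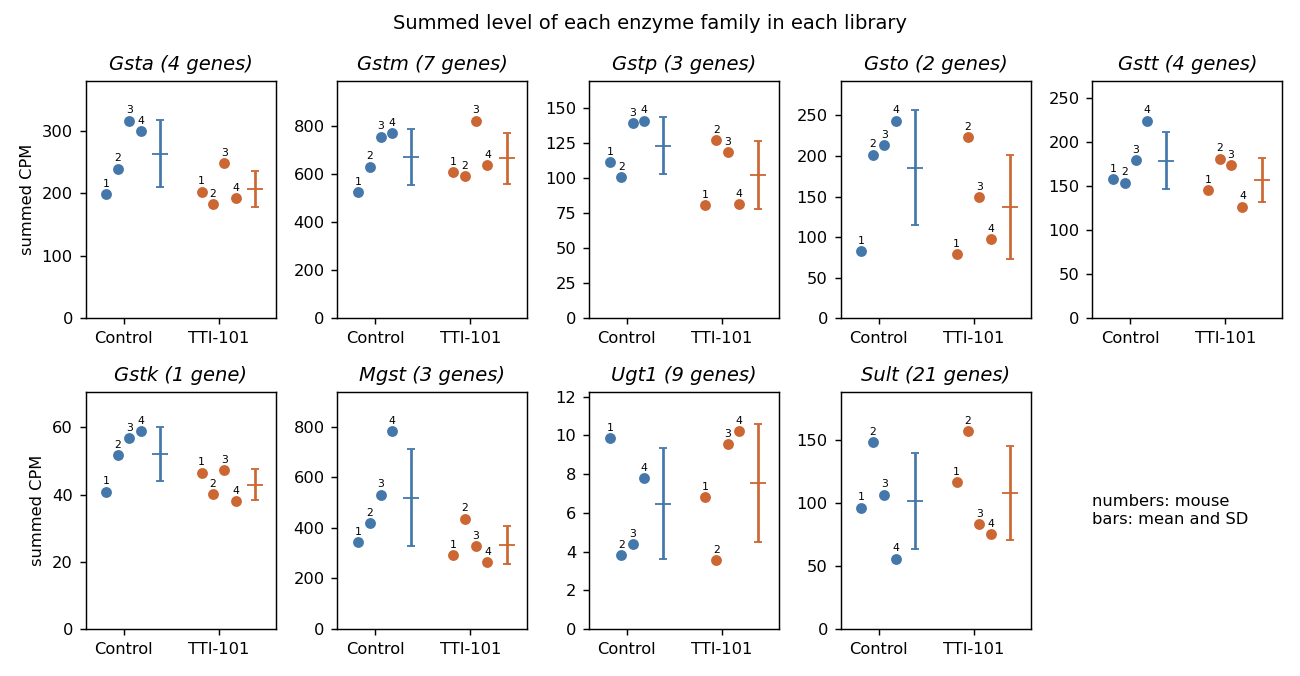
Summed CPM of all members of each family in every library, on linear axes that start at 0. Numbers beside the points name the mouse, and bars are the mean and SD of 4 mice. The Mgst sum of control mouse 4 (783 CPM) is the highest of that family, and the sums of both groups overlap in every family shown. The log2 ratio of the Sult means (0.09) turned to -0.12 without control mouse 4 and to -0.15 without TTI-101 mouse 2.

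Sulfotransferases were represented by 4 reported genes of 21. Sult1a1 (chromosome 7, 126672865 to 126676432), which sulfates small phenols, had the highest level per length of the family, at 41.7 CPM per kilobase. It was at 65.9, 92.1, 64.4 and 29.9 CPM in Control mice 1 to 4 and at 75.5, 85.9, 43.4 and 45.6 CPM in TTI-101 mice 1 to 4. In both groups mice 1 and 2 lay above mice 3 and 4, as their Xist levels did, and a link to sex was not tested. The log2 fold change was -0.01 ± 0.33 (SE, adjusted p = 0.996, edgeR), and its sign turned in several fits. Sult2b1 (chromosome 7, 45729983 to 45784669), which sulfates cholesterol and other sterols, was at 4.62, 4.78, 7.32 and 13.3 CPM in Control and at 3.17, 5.16, 3.84 and 3.95 CPM in TTI-101 mice 1 to 4. Control mouse 4 was the highest, and TTI-101 mouse 2 overlapped the lower Control libraries. Its log2 fold change was -0.90 ± 0.36 (SE, unadjusted p = 0.0309, adjusted p = 0.657, edgeR) and -0.46 without control mouse 4 (unadjusted p = 0.124, edgeR). Sult5a1 (chromosome 8, 123140192 to 123158315) was at 11.997, 18.1, 14.8 and 5.82 CPM in Control and at 15.3, 18.0, 18.1 and 15.2 CPM in TTI-101 mice 1 to 4, with a log2 fold change of 0.39 ± 0.29 (SE, unadjusted p = 0.209, edgeR). Control mouse 4 was its lowest library, and without that mouse the value was 0.17, against 0.62 without control mouse 2. Sult1d1, which sulfates catecholamines, had means of 17.5 and 23.4 CPM (log2 fold change 0.42, unadjusted p = 0.445, edgeR), and the value ranged from -0.13 to 0.88 as single libraries were left out (lowest without TTI-101 mouse 2, highest without control mouse 2). The 21 Sult genes summed to 102 ± 37.98 CPM in Control and 108 ± 37.3 CPM in TTI-101 (SD, n = 4 each).

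Glucuronosyltransferases were low. Ugt1a7c (chromosome 1, 88095062 to 88220002), the highest of them per length at 0.955 CPM per kilobase, was at 6.60, 2.33, 1.39 and 2.88 CPM in Control mice 1 to 4 and at 3.73, 1.38, 6.39 and 7.54 CPM in TTI-101 mice 1 to 4. The groups covered nearly the same range, and the log2 fold change was 0.51 ± 0.56 (SE, adjusted p = 0.787, edgeR). It ranged from 0.21 without TTI-101 mouse 4 and 0.26 without control mouse 3 to 0.83 without TTI-101 mouse 2 and 1.12 without control mouse 1, and was 0.34 without TTI-101 mouse 3. The log2 ratio of the summed Ugt1 means was 0.22, with a range from 0.04 (without control mouse 2, and also without TTI-101 mouse 4) to 0.50 (without control mouse 1). Ugt1a6a had means of 1.87 and 1.76 CPM, and Ugt1a6b had means of 1.13 and 0.85 CPM. None of the 10 Ugt2 and 2 Ugt3 genes reached the limit for reporting.

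The limit of 10 counts in 4 libraries left out 37 of the 66 genes, of which 14 had no count in any library. Just inside it were Gstm3, with 90 counts in all, and Ugt1a6b, with 149. Just outside it was Sult4a1, a sulfotransferase of the nervous system, with 2, 5, 7 and 10 counts in Control mice 1 to 4 and 12, 25, 8 and 4 in TTI-101 mice 1 to 4. Ugt2b34 reached 10 counts in only 1 library, with 2, 4, 5 and 26 counts in Control and 1, 4, 1 and 0 in TTI-101. Most counts of Ugt2b34 came from control mouse 4.

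**Figure D4:**
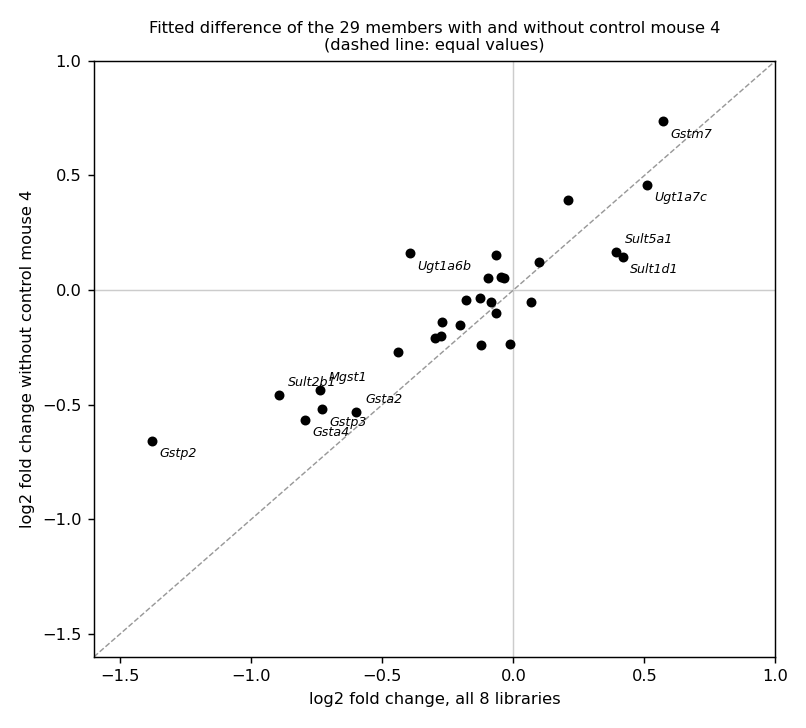
Log2 fold change (TTI-101 minus Control) of the 29 genes with all 8 libraries (horizontal) and without control mouse 4 (vertical). The dashed line marks equal values. Gstp2 (-1.38 against -0.66), Sult2b1 (-0.90 against -0.46) and Mgst1 (-0.74 against -0.43) lie nearer to 0 without that mouse, and Gstm7 lies farther from it (0.57 against 0.74).

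The genes that supply the conjugated groups were compared in the same fit. In the list for glutathione synthesis and recycling, 15 of 20 genes were lower and 5 higher, with a median log2 fold change of -0.16, and 1 had an unadjusted p under 0.05. Without control mouse 4 the median was -0.09 and none had. Gclc, the catalytic subunit of the rate-limiting enzyme of glutathione synthesis, was at 393, 311, 377 and 945 CPM in Control mice 1 to 4 and at 278, 383, 196 and 354 CPM in TTI-101 mice 1 to 4. Control mouse 4 was far above every other library, and without it the log2 fold change of -0.74 ± 0.35 (SE, unadjusted p = 0.0611, edgeR) became -0.24. Gclm, its modifier subunit, had means of 71.0 ± 14.7 and 55.2 ± 5.49 CPM (SD, n = 4 each; log2 fold change -0.36, unadjusted p = 0.0554, edgeR, and -0.23 without control mouse 4). Slc7a11, which imports cystine, had means of 8.46 ± 9.05 and 2.54 ± 1.37 CPM (SD, n = 4 each; log2 fold change -1.73, unadjusted p = 0.0386, edgeR), and without control mouse 4 the value was -0.71 (unadjusted p = 0.2496, edgeR).

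For the supply of UDP-glucuronate and PAPS, 10 of 12 genes were lower and none had an unadjusted p under 0.05 (median -0.11), while 7 were lower and the median was -0.02 when control mouse 4 was left out. Ugdh, which makes UDP-glucuronate, had means of 46.4 ± 1.48 and 44.7 ± 7.68 CPM (SD, n = 4 each). Papss2, a PAPS synthase, had means of 21.01 ± 6.07 and 29.6 ± 9.29 CPM (SD, n = 4 each), with 3 TTI-101 libraries above all Control libraries (log2 fold change 0.49, unadjusted p = 0.113, edgeR). Among the hydrolase genes Gusb, Arsa, Arsb and Arsk and the sulfatase-modifying factors Sumf1 and Sumf2, 5 of 6 were higher. Whether these act on conjugates made by the enzymes above was not tested. Arsa, a lysosomal arylsulfatase, had means of 35.6 ± 9.94 and 54.5 ± 12.04 CPM (SD, n = 4 each; log2 fold change 0.61, unadjusted p = 0.0183, edgeR). Without control mouse 4 all 6 were higher (median 0.18), and Arsa was at 0.51 (unadjusted p = 0.0405, edgeR). Exporters of conjugates had 8 of 12 genes higher (median 0.20), and other conjugating and hydrolysing enzymes had 9 of 20 higher (median -0.11), with no gene at an unadjusted p under 0.05 in either list. These medians were 0.10 and -0.05 when control mouse 4 was left out. Sulfotransferases that act on glycans and proteins, which the chosen symbols leave out, had 17 of 20 genes higher (median 0.36), and 15 of 20 (median 0.14) when control mouse 4 was left out. Of these, Tpst2, which sulfates protein tyrosines, was higher (50.2 ± 16.1 against 78.8 ± 15.04 CPM, SD, n = 4 each; log2 fold change 0.65, unadjusted p = 0.0257, edgeR). Hs6st2, a heparan sulfate 6-O-sulfotransferase, was lower in all 4 TTI-101 libraries (8.39 ± 4.38 against 3.92 ± 0.489 CPM; log2 fold change -1.09, unadjusted p = 0.00868, edgeR). Without control mouse 4, Tpst2 was at 0.45 (unadjusted p = 0.0185, edgeR) and Hs6st2 at -0.66 (unadjusted p = 0.0214, edgeR).

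Targets of the 2 best known activators of these genes were read beside them. Of 20 NRF2 target genes outside the families, a list that shares Gclc, Gclm, Gsr and Slc7a11 with the glutathione list, 17 were lower and 3 higher (median -0.24), and 4 had an unadjusted p under 0.05, all lower, of which Slc7a11 is given above. Prdx1, a peroxiredoxin, was below all Control libraries in all 4 TTI-101 libraries (465 ± 94.3 against 319 ± 29.8 CPM, SD, n = 4 each; log2 fold change -0.55, unadjusted p = 0.0098, edgeR). Hmox1, which degrades heme, was at 70.3 ± 19.6 and 49.2 ± 7.71 CPM (log2 fold change -0.52, unadjusted p = 0.0298, edgeR), and Me1, which makes NADPH, at 185 ± 62.1 and 126 ± 18.9995 CPM (log2 fold change -0.56, unadjusted p = 0.0294, edgeR). Without control mouse 4, 13 of the 20 were lower (median -0.10) and 1, Prdx1, had an unadjusted p under 0.05. Nqo1, a target of both factors, was at 6.52 ± 2.63 and 7.47 ± 1.595 CPM (SD, n = 4 each; log2 fold change 0.20, unadjusted p = 0.535, edgeR, and 0.42 without control mouse 4). Of 6 AHR target genes tested, 4 were higher (median 0.20). Cyp1a1, the classic AHR target, was at 10.6 ± 7.03 CPM in Control and 214 ± 95.7 CPM in TTI-101 (SD, n = 4 each; log2 fold change 4.32 ± 0.52 SE, adjusted p = 0.105, edgeR). Cyp1b1, another cytochrome P450 of the list, was at 13.9, 10.5, 12.3 and 62.3 CPM in Control mice 1 to 4 and at 22.6, 32.4, 19.5 and 23.4 CPM in TTI-101 mice 1 to 4. Control mouse 4 alone was above the TTI-101 libraries, and the other 3 Control libraries were below all of them. Its log2 fold change was -0.01 (unadjusted p = 0.980, edgeR) with all libraries and 1.01 (unadjusted p = 0.000749, edgeR) without control mouse 4. Beside Nqo1, the remaining AHR targets tested had log2 fold changes of 0.23 for Aldh3a1 (0.07 without that mouse), 0.20 for Tiparp (0.25) and -0.22 for Nfe2l2 (-0.06), the gene of NRF2. In all, 5 of the 6 were higher without that mouse (median 0.34), and 2 had an unadjusted p under 0.05, Cyp1a1 and Cyp1b1. In the regulators NRF2, AHR, PXR and CAR and their partners, 10 of 14 genes were lower (median -0.10), with 1 at an unadjusted p under 0.05, Hnf4a (4.32 ± 2.87 against 1.29 ± 1.12 CPM, SD, n = 4 each; log2 fold change -1.73, unadjusted p = 0.0251, edgeR). When control mouse 4 was left out, 7 of the 14 were lower (median -0.01), Hnf4a was at -1.17 (unadjusted p = 0.0892, edgeR) and no regulator had an unadjusted p under 0.05.

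Promoters were searched on both strands for short motifs of these factors in the window from 250 bases before to 50 after each start in RefSeq (GRCm38.p6), which held 35 promoters of 26 of the 29 genes. Gsta4, Gstt2 and Ugt1a6b were not matched. The antioxidant response element of NRF2, searched as TGACNNNGC, was in 4 of the 35 promoters (11.43%), of Gsta3, Gstm5, Gstm7 and Mgst1, against 12.39% of all 32851 promoters. The extended AHR motif TNGCGTG was in 2 (5.71%), of Gsta2 and Sult1d1, against 5.07% of all, and its core GCGTG, which the extended motif contains, was in 10 (28.57%) against 32.39%. The STAT motif TTCNNNGAA was in 4 (11.43%), of Gstm6, Mgst1, Mgst2 and Ugt1a6a, against 8.3%. The windows of Mgst1 and Gstm7, the genes described above with opposite directions, and of Gsta2 and Sult1d1 are shown with the matched motif in capitals.
Mgst1, chr6:138140436-138140514, plus strand, antioxidant motif on the minus strand: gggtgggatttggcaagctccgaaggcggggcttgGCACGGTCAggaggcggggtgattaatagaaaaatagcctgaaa
Gstm7, chr3:107931700-107931778, minus strand, antioxidant motif: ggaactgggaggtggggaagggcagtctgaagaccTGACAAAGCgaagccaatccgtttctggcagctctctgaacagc
Gsta2, chr9:78347146-78347189, minus strand, extended AHR motif: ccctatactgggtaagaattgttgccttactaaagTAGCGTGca
Sult1d1, chr5:87569012-87569088, minus strand, extended AHR motif on the opposite strand: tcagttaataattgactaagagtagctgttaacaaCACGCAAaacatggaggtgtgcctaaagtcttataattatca
A match is a description of the letters in the window. The genes with the antioxidant motif had log2 fold changes of -0.74 (Mgst1), -0.12 (Gstm5), -0.06 (Gsta3) and 0.57 (Gstm7). A link between the motifs and the levels was not tested.

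Markers of lung cell types also had fitted differences between the groups, and none passed an adjusted p of 0.05. Club cell markers, of cells known to hold many of these enzymes, were lower for 4 of 5 genes (median -0.68), with summed levels from 14988 to 37329 CPM in Control and from 12610 to 24660 CPM in TTI-101. Scgb1a1, the club cell secretory protein, had a log2 fold change of -0.75 ± 0.33 (SE, unadjusted p = 0.0450, edgeR) and of -0.54 without control mouse 4 (unadjusted p = 0.0981, edgeR). Aldh1a7 was below all Control libraries in all 4 TTI-101 libraries (188 ± 54.8 against 113 ± 4.88 CPM, SD, n = 4 each; log2 fold change -0.73, unadjusted p = 0.00413, edgeR). Its value was -0.54 without control mouse 4 (unadjusted p = 0.00906, edgeR). All 6 ciliated cell markers (median -0.59) and all 5 alveolar type 2 markers (median -0.40) were lower, and all 4 markers each of alveolar type 1 cells (0.43), capillary endothelium (0.58), fibroblasts (0.46) and alveolar macrophages (0.26) were higher. Those of red cells (2.50), B cells (1.30), adipocytes (2.00) and cardiomyocytes (0.81) were also all higher. An unadjusted p under 0.05 (edgeR) was found for 2 of 5 club cell markers, both lower. It was also found for 4 of 5 red cell, 4 of 4 B cell and 3 of 3 adipocyte markers, all higher. Alb, the 1 hepatocyte marker tested, was lower (-2.10, and -0.31 without control mouse 4). The part of these shifts in the values of the conjugation enzymes was not tested. Leaving out control mouse 4 moved the medians to -0.54 for club cells, -0.36 for ciliated cells, -0.20 for alveolar type 2 cells, 0.23 for alveolar type 1 cells, 0.33 for endothelium, 0.25 for fibroblasts, 0.15 for alveolar macrophages (3 of 4 higher) and 0.43 for cardiomyocytes. Those of red cells, B cells and adipocytes were then 3.12, 1.08 and 1.66. In that fit 5 of 5 red cell, 4 of 4 B cell and 3 of 3 adipocyte markers had an unadjusted p under 0.05 (edgeR), against 1 of 5 club cell markers.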

How the data were processed

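RNA from whole lungs of CC-LR mice was sequenced from poly(A)-selected, paired-end libraries. The authors deposited raw counts for each Ensembl gene, as whole numbers that were not normalized. The submitters' processing notes name STAR, DESeq2 and mm10, while the counting tool and the strand setting are not given in the sources used here. Gene lengths were taken from the same table.

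In R 4.3.3, edgeR 4.0.16 scaled the counts by TMM, kept genes by filterByExpr (minimum count 10) and compared TTI-101 with Control by robust quasi-likelihood F-tests, with Benjamini-Hochberg adjustment over all genes tested and a threshold of 0.05. Single genes also had a two-sided exact permutation test of log2 CPM (prior count 2) over 70 assignments. The count model was tested on simulated data with larger changes than the reported genes had and with no library set apart. That test does not cover changes as small as theirs. The members and gene lists were chosen with earlier results of these data known, so they give no independent support. Values in every library are given for the 10 reported genes with the lowest p, the 8 with the highest CPM per kilobase, and the highest of each family. From related lists, genes with an unadjusted p under 0.05 (at most 4 a list), Gclc, Gclm, Ugdh, Papss2 and Cyp1a1 are described, and the other genes named from those lists were chosen after their values were seen.

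Alternatives were DESeq2 1.42.0, limma-voom (limma 3.58.1), DESeq2 size factors or plain library totals for scaling, the filter dropped or set to 10 counts in 4 libraries, a replicate block, Xist as a covariate and leaving out each library. The count of lower genes under each was added after seeing the data. The labels do not say how the mice were related or caged, and p-values measure the spread between these mice.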

Additional observations from a re-analysis of the deposited data

Results flagged for a closer look

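Gsto1 in control mouse 1 was set apart from the other Control libraries. On the log2 CPM scale, the gap to the nearest Control library was 0.83 of the whole range of the group, just above Dixon's critical value of 0.829 for 4 samples. The library was at 81.7 CPM, while the other Control libraries were at 201, 211 and 241 CPM, and TTI-101 mouse 1 was at 78.4 CPM. In all, 52 groups of 4 libraries were checked in this way and 1 was set apart, where chance flags about 1 in 20 groups, or 2.6 here.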

How the results depend on the processing

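No conjugation enzyme had an adjusted p under 0.05 in any of the 17 fits. Over all genes, 0 passed in edgeR, while DESeq2 called 4, Xist as a covariate gave 1, and leaving out single libraries gave 0 to 1 (1 without control mouse 1 and 1 without TTI-101 mouse 3). At an unadjusted p under 0.05 there were 1132 genes in edgeR, 1849 with no filter, where more genes were tested, and 422 (without TTI-101 mouse 3) to 2498 (without TTI-101 mouse 2) with single libraries left out, including 531 without control mouse 4, 711 without TTI-101 mouse 1 and 2393 without control mouse 1. Of the 29 reported genes, 4 had an unadjusted p under 0.05, against 1 (without TTI-101 mouse 1) to 7 (without TTI-101 mouse 2) with single libraries left out and 2 without control mouse 4 and without TTI-101 mouse 3. The replicate block gave 2, Gsta4 and Gstp2. Deviations of same-numbered mice from their group means had correlations of 0.40, 0.08, 0.16 and 0.07. Mice of different numbers were not compared, so these values do not decide whether the numbers mark pairs. The numbers also ran with the Xist levels given above, and mouse 1 had the highest total counts of each group (26873509 and 25920509). The main fit used no pairs because the labels name none. From 17 to 23 of the 29 genes were lower.

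Genes near 0 turned in sign. Sult1a1 was at 0.0304 in limma-voom, 0.00856 with library totals, 0.0316 with the replicate block, 0.0153 with Xist as a covariate and from -0.23 to 0.23 with single libraries left out. Gstm1 ranged from -0.17 to 0.0581 and Gstm2 from -0.0453 to 0.21 with single libraries left out. The cause was not tested. With 4 mice a group, the smallest exact permutation p is 0.0286, and genes under about 2 CPM rest on few counts.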

Other observations

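Some genes that the limits above left out had counts in few libraries. Gsta1, an alpha-class gene that shared 81.8% of its 100-base windows with other genes, had 3, 9, 5 and 8 counts in Control mice 1 to 4 and 0, 3, 3 and 0 in TTI-101 mice 1 to 4. Sult2a1, a sulfotransferase of steroids and bile acids, had 13 of its counts in TTI-101 mouse 1, and no other library held more than 4. Alb, the albumin gene and a hepatocyte marker, was at 11.1 CPM in control mouse 4, the library that also held most counts of Ugt2b34, and at 0.608 to 1.21 CPM in the other 7 libraries.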
